A study of Mus musculus with 48 samples.

Results

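The constitutive proteasome subunits were followed across 28 mouse RNA-seq libraries of sorted tumour cells, bone marrow and spleen. The set was taken from the count table as the protein-coding genes whose symbols are Psma, Psmb, Psmc or Psmd with a number, without the immune subunits Psmb8, Psmb9 and Psmb10. This gave 36 of 55486 genes. By symbol, 16 were assigned to the core particle (8 Psma and 8 Psmb genes) and 20 to the regulatory particle (6 Psmc and 14 Psmd genes). The 20 include genes of assembly chaperones, such as Psmd9 and Psmd10, which are not built-in subunits. The set was proposed with Psmb4 and Psmd8 in view, which the genotype comparison in tumour cells, deposited by the authors, lists with an adjusted p below 0.05.

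The study set QPCTL-KO mice against wild-type littermates of the strain QPCTL-KO C57/Bl6JR, with 48 samples in all, where QPCTL is a glutaminyl cyclase of the Golgi apparatus. CD45-negative tumour cells came from mice 14 days after B16F10 melanoma inoculation, with 6 samples from homozygous QPCTL-KO mice given QPCTL-KO B16F10 cells and 6 from littermates given QPCTL-WT B16F10 cells. Bone marrow and spleen were whole organs of mice aged 10 to 15 weeks without inoculation, with 4 QPCTL-KO and 4 wild-type samples per organ. Host and tumour genotype always changed together, so their parts cannot be told apart. The columns of the count table carry a tissue and a running number but no genotype, so each tissue group below mixes both genotypes in equal number. The 20 lymph node columns were not used here, because their names fit both the baseline and the tumour-bearing lymph nodes.

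The proteasome is the protease that degrades proteins tagged with ubiquitin in the cytosol and nucleus. Its core particle is a barrel of stacked rings, with outer rings of alpha subunits (Psma genes) that gate the entry and inner rings of beta subunits (Psmb genes) that hold the catalytic sites. The regulatory particle caps the barrel: a ring of ATPases (Psmc genes) unfolds the substrate, and the non-ATPase subunits (Psmd genes) bind ubiquitin, remove it and hold the cap together. In leukocytes and in cells exposed to interferon, immune subunits replace the catalytic beta subunits and give peptides for antigen presentation.

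Depth was low. The used libraries held between 54117 reads (tumour library 4) and 637985 reads in the table, while sequencing gave 18 M reads per sample on average, as stated in the labels. The kit marks the strand of each RNA, and the strand setting of the counting is not given in the sources used here. Of all counts, 60.3% to 83.1% lay in genes whose exons share at least 50 bases with coding exons on the opposite strand. Protein-coding genes without any opposite-strand exon held 9.58% to 28.2%. Within that range, spleen library 8 (9.58%) and tumour libraries 10, 11 and 12 (11.8%, 9.93% and 9.94%) stood apart from the other libraries of their groups. The mitochondrial gene mt-Nd6 lies on the opposite strand to most mitochondrial genes, and its reads exceeded the median of 6 of those by 3.27 to 5.98 log2 units in every library. What part this has in the values below was not tested. In CPM (counts scaled to the same library total), melanocyte lineage markers summed to a median of 4917 in tumour cells (lowest 1848), against medians of 86.1 in bone marrow and 214.9 in spleen (highest 269.1). The leukocyte gene Ptprc, which encodes CD45, and all 4 B cell markers had no read in the 12 tumour libraries. Fibroblast markers summed to a median of 69.0 CPM in tumour cells, with 1672 in the highest library. Proliferation markers summed to 251.3 to 1201 CPM in tumour cells, 959.3 to 1493 in bone marrow and 63.9 to 3383 in spleen, and their part in the tissue contrasts was not tested. In bulk samples, fewer cells of a type and less RNA per cell cannot be told apart.

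All 36 subunit genes together received few reads. Their sum was 51 to 877 reads per library in tumour cells (median 398), 202 to 861 in bone marrow (median 412.5) and 67 to 757 in spleen (median 323). Per single gene and library, the median was 7 reads in tumour cells, 11 in bone marrow and 7 in spleen. No read was found in 10.6% of the gene and library pairs in tumour cells, 4.51% in bone marrow and 9.03% in spleen. For 8 of the 36 genes an exon overlaps one on the opposite strand: Psma4 (AY074887), Psma5 (1700010K24Rik), Psmb7 (Nek6), Psmc3 (Slc39a13), Psmd1 (Htr2b), Psmd3 (Gm12356), Psmd9 (Gm26745) and Psmd13 (Sirt3). Without a known strand setting, reads of these genes and of their partners cannot be told apart. The other 28 genes have no such overlap.

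Levels are given in CPM after scaling by trimmed mean of M values (TMM), as the lowest, median and highest library. Per kilobase of exon, Psmc1 (ENSMUSG00000021178, chromosome 12, 100110154 to 100123405, plus strand, GRCm38), which encodes a base ATPase, stood highest in tumour cells. Its median was 50.1 CPM per kilobase in tumour cells, 29.2 in bone marrow and 24.9 in spleen. Psmd7, which encodes a lid subunit that pairs with the deubiquitinase Psmd14, stood highest in both organs, with 34.1 CPM per kilobase in bone marrow and 32.4 in spleen, and reached 45.7 in tumour cells. Leaving out Psma8 and Psmb11, the lowest genes encode assembly chaperones of the base rather than built-in subunits. Psmd9 was lowest in both organs, with 1.26 CPM per kilobase in bone marrow and 0.873 in spleen, and had 1.16 in tumour cells. Psmd10 was lowest in tumour cells, with 0.987 CPM per kilobase, against 6.45 in bone marrow and 4.90 in spleen. It was absent from 6 of 12 tumour libraries and from 0 of 8 bone marrow libraries, and its tumour and marrow ranges (0 to 10.9 and 4.89 to 19.7 CPM) overlapped.

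The subunits restricted to single tissues in the mouse were close to absent. Psma8, the alpha subunit of spermatocytes, had 0 reads in tumour cells, 2 in bone marrow and 0 in spleen over all libraries of each group. Psmb11, the beta subunit of the thymic cortex, had 2, 2 and 0 reads. A count of 0 still allows 3 reads, which is 0.884 CPM over the tumour libraries and 1.11 CPM over the spleen libraries, for counting error only. The 3 constitutive catalytic subunits were measured but low. Psmb5, with the chymotrypsin-like site, had 0, 8.81 and 15.0 CPM in tumour cells, 4.51, 8.71 and 15.0 CPM in bone marrow and 0, 9.91 and 22.2 CPM in spleen. Psmb6, with the caspase-like site, had 0, 17 and 33.3 CPM in tumour cells, 2.48, 11.4 and 21.1 CPM in bone marrow and 8.13, 17.8 and 27.8 CPM in spleen. Psmb7, with the trypsin-like site, had 6.21, 28.6 and 48.4 CPM in tumour cells, 17.4, 20.6 and 34.5 CPM in bone marrow and 5.54, 22 and 27.8 CPM in spleen. The ranges of all 3 genes overlapped between all tissues.

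In TMM-scaled CPM, the subunit genes as a set stood at a like level in the 3 tissues. Set against coding genes without opposite-strand exons, as given below, the tumour median was higher than that of both organs. The mean over the 36 genes was 4.26, 5.01 and 5.34 log2 CPM in tumour cells (lowest, median and highest library), 4.64, 4.85 and 5.16 in bone marrow and 3.64, 4.87 and 5.29 in spleen. The core genes had medians of 4.51 in tumour cells, 4.52 in bone marrow and 4.49 in spleen. The regulatory genes had medians of 5.36, 5.10 and 5.06 in the same order. Within each library, the core mean lay below the regulatory mean, in all 28 libraries. The difference was -1.17, -0.87 and -0.58 log2 units in tumour cells, -0.72, -0.53 and -0.41 in bone marrow and -0.98, -0.54 and -0.20 in spleen. Tumour cells had the lowest median, and their range overlapped both organs. These means are not per length, and the 2 restricted genes, both core, hold the core mean down. With the median over genes in place of the mean, the difference was -0.74 in tumour cells, -0.22 in bone marrow and -0.28 in spleen. Set against coding genes without opposite-strand exons alone, the 28 subunit genes without such overlap summed to 3059, 5636 and 6318 CPM, with CPM taken over those genes, in tumour cells, 3233, 3693 and 3986 in bone marrow and 2191, 3921 and 5763 in spleen. Without tumour library 4, which had 51 subunit reads, the lowest tumour value was 4816, above all bone marrow libraries.

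**Figure D1:**
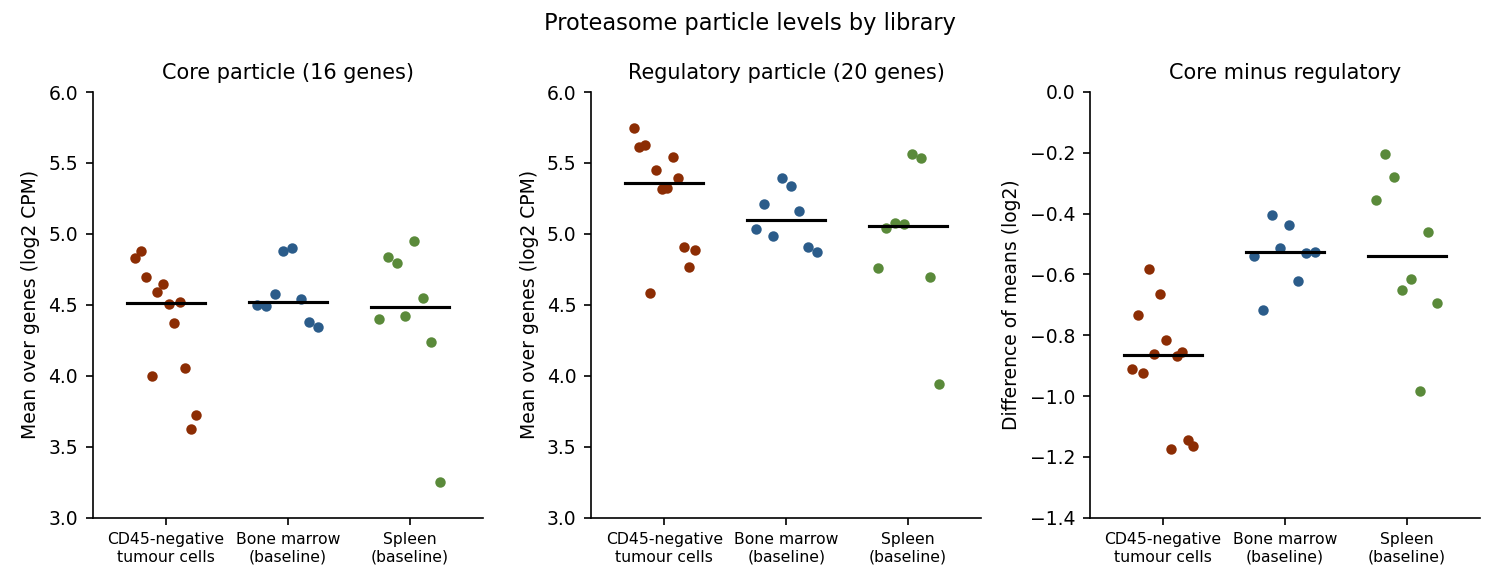
Mean log2 CPM of the core (16) and regulatory (20) subunit genes and their difference, one point per library with the group median as a bar, for CD45-negative tumour cells (n = 12), bone marrow (n = 8) and spleen (n = 8). Core medians lie between 4.49 and 4.52 in the 3 tissues, while the regulatory median is 5.36 in tumour cells, 5.10 in bone marrow and 5.06 in spleen.

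Tumour cells were compared with each organ by edgeR's quasi-likelihood test over 5143 genes, a call being an adjusted p (Benjamini-Hochberg) below 0.05. These comparisons ask where B16F10 tumour cells differ from lymphoid organs in subunit genes. They set sorted cells of inoculated mice against whole frozen organs of other mice, so tissue, sorting and inoculation cannot be told apart. P-values measure the spread between libraries, which mix both genotypes. Only 21 of the 36 genes had enough reads to be tested, 8 of the core and 13 of the regulatory particle, and the restricted and the 3 catalytic subunits were not among them.

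Against spleen, 5 subunit genes were higher in tumour cells and 1 was lower, 6 of 21 tested. Among all genes tested 68.1% were called, 33.4% higher and 34.7% lower, so the share of subunit genes called was below that background. The background was not matched to the subunit genes by level, and the part of their low read numbers in this was not tested. The 5 that rose all encode regulatory subunits: Psmd8, Psmd2, Psmd1, Psmd3 and Psmc1. The 1 that fell, Psmb1, encodes a non-catalytic beta subunit of the core. The median log2 fold change of tumour cells minus spleen was 0.34 over the 21 genes and 0.01 over all genes tested. Divided by particle, it was -0.20 over 8 core genes, of which 3 were positive, and 0.50 over 13 regulatory genes, of which 12 were positive. These medians describe only the genes that passed the filter on low counts. The filter asks for enough reads in some libraries of any tissue, so a gene can pass through the tumour libraries alone. The numbers of positive genes therefore depend on the filter. Without that filter 24548 genes were tested, and 33.8% of them were called, 12.1% higher and 21.7% lower. The same 5 subunit genes rose there, while Psmb1 and Psma2 fell. The median was 0.19 over all 20 regulatory genes, 16 of them positive, and -0.27 over the 14 core genes other than Psma8 and Psmb11, 6 of them positive, where that of all genes was -0.22.

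Psmd2 encodes the large base scaffold on which ubiquitin shuttle proteins dock (ENSMUSG00000006998, chromosome 16, 20651652 to 20663414, plus strand). It was measured at 60.0, 133 and 192 CPM in tumour cells, 58.7, 67.3 and 95.3 CPM in bone marrow and 21.9, 55.7 and 104 CPM in spleen. All tumour libraries but the shallow library 4 were above all bone marrow libraries. The log2 fold change against spleen was 1.24 ± 0.20 (SE), with an adjusted p of 1.75e-06 in edgeR's test. Against bone marrow it was 0.88 ± 0.19, with an adjusted p of 0.000121 in the same test.

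Psmd8, a lid subunit (ENSMUSG00000030591, chromosome 7, 29174188 to 29180701, minus strand), had 5.89, 52.3 and 100.3 CPM in tumour cells. It had 13.3, 22 and 42.2 CPM in bone marrow and 5.54, 21.2 and 36.9 CPM in spleen. Of the 12 tumour libraries, 7 were above the highest library of either organ, library 7 was level with the highest bone marrow library, and libraries 4, 10, 11 and 12 lay lower. The log2 fold change was 1.27 ± 0.34 against spleen, with an adjusted p of 0.00142 in edgeR's test. It was 1.17 ± 0.33 against bone marrow, with an adjusted p of 0.0018 in the same test. Psmd8 was chosen from the genotype comparison of the tumour samples, and the tissue contrast is a different one, although it uses tumour libraries.

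Psmd1 encodes the second large base scaffold (chromosome 1, 86064387 to 86139151, plus strand), and Htr2b lies on its opposite strand. It was at 11.8, 43.9 and 67.9 CPM in tumour cells, 13.5, 22.7 and 35.7 CPM in bone marrow and 7.39, 14.5 and 58.0 CPM in spleen. Its log2 fold change was 1.10 ± 0.31 against spleen and 0.82 ± 0.28 against bone marrow. The groups overlapped in both contrasts. Psmd3, a lid subunit, had changes of 0.90 against spleen and 0.75 against bone marrow. Psmc1 had 30.0, 96.9 and 112 CPM in tumour cells, 27.7, 56.4 and 90.6 CPM in bone marrow and 31.4, 48.1 and 69.0 CPM in spleen. Its changes were 0.81 ± 0.22 and 0.56 ± 0.21 in the same order.

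Psmb1 went the other way against spleen. It had 5.89, 23.1 and 30.0 CPM in tumour cells, 17.1, 24.8 and 36.1 CPM in bone marrow and 5.54, 31.2 and 66.5 CPM in spleen. The tumour and spleen ranges overlapped, with most spleen libraries in the upper part of the tumour range or above it and spleen library 8, with 1 read, at the bottom. Its log2 fold change was -0.93 ± 0.28 against spleen, with an adjusted p of 0.00397 in edgeR's test. Against bone marrow the value was -0.38 ± 0.28, with an adjusted p of 0.228. Psmb4, the non-catalytic beta subunit named by the genotype comparison, had 3.52, 32.6 and 75.0 CPM in tumour cells, 19.9, 29.7 and 48.2 CPM in bone marrow and 5.54, 20.8 and 60.2 CPM in spleen. It was not called in either contrast, with adjusted p-values of 0.439 against spleen and 0.792 against bone marrow.

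**Figure D2:**
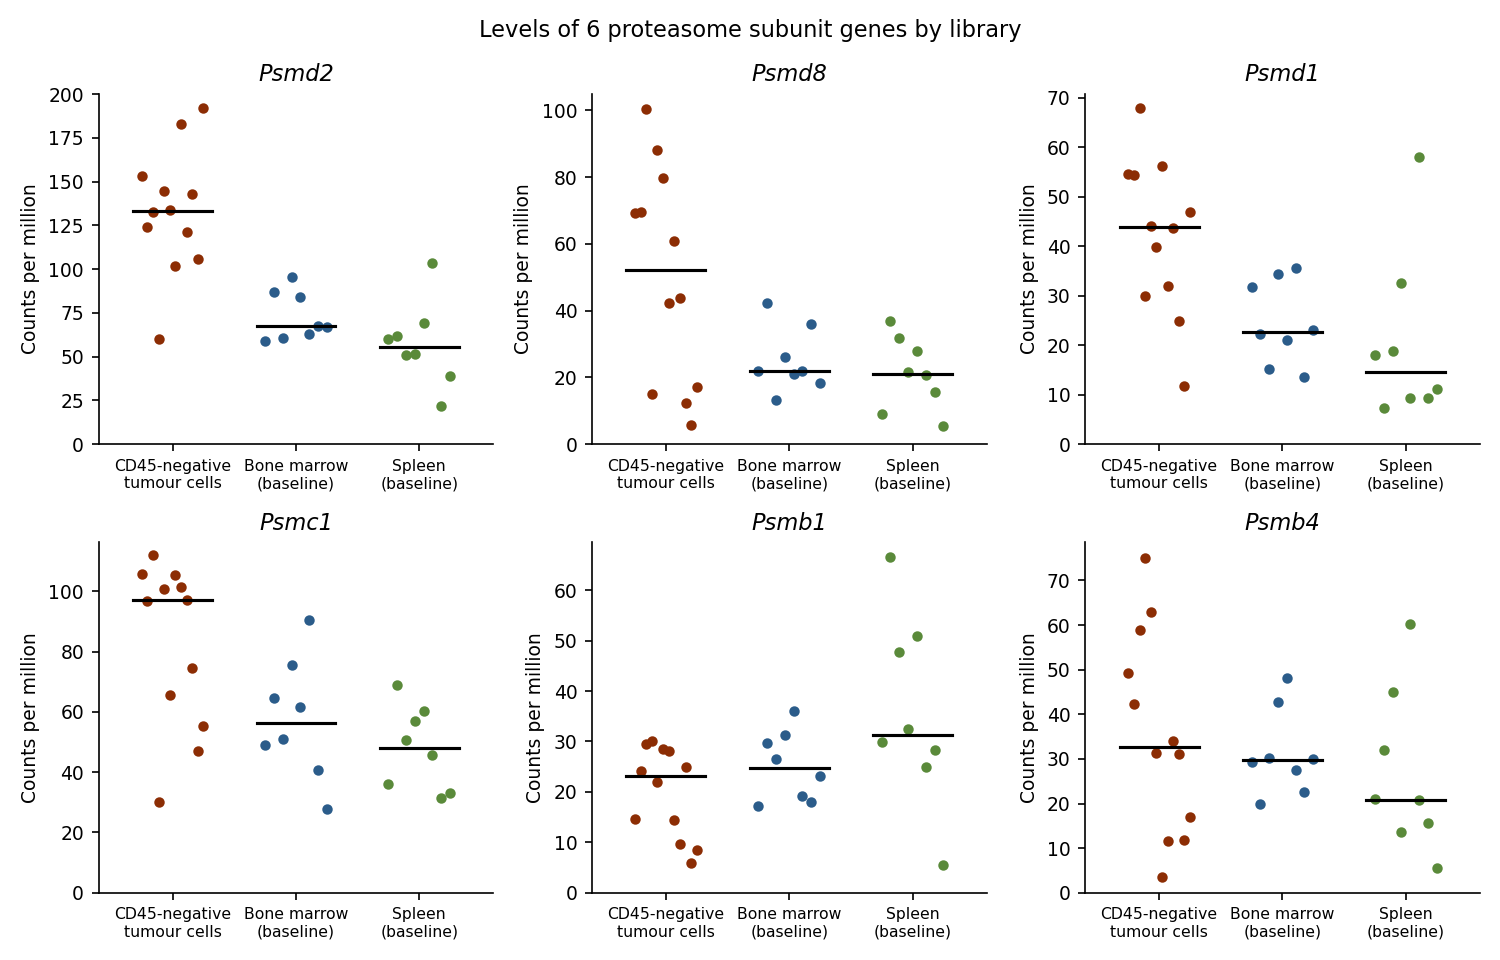
CPM of 6 subunit genes in every library (points) with the group median (bar), for CD45-negative tumour cells (n = 12), bone marrow (n = 8) and spleen (n = 8). The tumour median of Psmd2 is 133 CPM, against 67.3 in bone marrow and 55.7 in spleen, while Psmb1 and Psmb4 overlap widely between tissues.

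Against bone marrow, 7 of the 21 tested subunit genes were higher in tumour cells and 0 were lower, where 70.1% of all genes tested were called, 34.2% higher and 35.9% lower. All 7 encode regulatory subunits: the 4 non-ATPase genes that also rose against spleen, and the base ATPase genes Psmc5, Psmc1 and Psmc3. The median log2 fold change was 0.34 over the 21 genes and -0.03 over all genes tested. It was -0.21 over the 8 core genes, 3 of them positive, and 0.53 over the 13 regulatory genes, 12 of them positive. As against spleen, this holds for the genes that passed the filter on low counts. Without it the 4 non-ATPase genes rose, and Psma1, Psma2 and Psmd10 fell, where 35% of all genes tested were called, 15.2% higher and 19.8% lower. Psmd10, a regulatory gene, was at -1.43 ± 0.49 there, with an adjusted p of 0.012 in edgeR's test, and at -1.22 against spleen, with an adjusted p of 0.0618. Of the 7 regulatory genes that the filter had left out, 6 were negative against bone marrow and 3 against spleen. The median over all 20 regulatory genes against bone marrow was then 0.25, with 13 positive, and that over the 14 core genes other than Psma8 and Psmb11 was -0.20, with 3 positive. Over all 36 subunit genes it was -0.05 against bone marrow, with 16 positive, so the sign of the set median turned. Against spleen it was 0.16 over the 36, with 23 positive.

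Of the 14 non-ATPase genes, 7 were tested with the filter, and the same 4 of them rose in both contrasts. The remaining tested ones were Psmd4, a ubiquitin receptor, at -0.42 and -0.21, Psmd7 at 0.30 and 0.39, and Psmd11 at 0.50 and 0.34. Among the 6 ATPase genes 1 rose against spleen and 3 rose against bone marrow, and all 6 were positive in both. None of the 3 ATPase calls against bone marrow held without the filter, where the adjusted p was 0.134 for Psmc1, 0.192 for Psmc3 and 0.108 for Psmc5 in edgeR's test. Psmc1 and Psmc5 were also not called with DESeq2's size factors (adjusted p of 0.0723 and 0.0956) or with DESeq2 (0.0653 and 0.0757), and Psmc5 not without tumour library 4 (0.0773). With the filter, no alpha subunit gene was called in either contrast. Psma1 and Psma2 had the most negative alpha values, -0.44 and -0.71 against spleen and -0.68 and -0.67 against bone marrow, with adjusted p-values in edgeR's test of 0.0623 and 0.0692 against bone marrow.

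Both tumour contrasts share the 12 tumour libraries, so they are not independent of each other. No subunit gene had groups that did not overlap, where 21% of all genes tested did not overlap against spleen and 34.2% against bone marrow. At a fold of at least 2, 3 were called against spleen and 1 against bone marrow, where 46.8% and 48.4% of all genes tested were. The number of subunit genes that fell moved with the scaling. DESeq2's size factors put the median of all genes at -0.19 against spleen and -0.18 against bone marrow. There 5 subunit genes rose and 3 fell against spleen, where 67.6% of all genes tested were called, 27.9% higher and 39.7% lower. Against bone marrow 5 rose and 2 fell, where 70.7% were called, 30% higher and 40.7% lower. The ones that fell were Psmb1, Psma2 and Psmd4 against spleen and Psma1 and Psma2 against bone marrow. Single libraries moved it too. Without tumour library 4, 3 fell against spleen and 2 against bone marrow, where 1972 and 2000 of all 5081 genes fell. Without spleen library 8, 3 and 2 fell likewise, where 2082 and 2109 of all 5459 genes did. Relative to the median of all genes under DESeq2's size factors, the regulatory genes had medians of 0.48 and 0.55, and the core genes -0.21 and -0.18. Over only the coding genes without opposite-strand exons, 3 of 17 subunit genes rose and 3 fell against spleen, with 28.4% of those genes higher and 39.4% lower. In the same fit 8 rose and 0 fell against bone marrow, with 33.2% higher, 38.3% lower and 71.5% called (67.9% called against spleen). Relative to the median of all genes in that fit, the core genes had medians of 0.07 against spleen and -0.04 against bone marrow, and the regulatory genes 0.46 and 0.58. No core gene rose in either contrast in these alternatives. They kept the filter on low counts, so their medians by particle depend on it as above. Without the filter, relative to the median of all genes, the 20 regulatory genes had medians of 0.42 against spleen and 0.25 against bone marrow. The 14 core genes other than Psma8 and Psmb11 had -0.05 and -0.20 there.

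**Figure D3:**
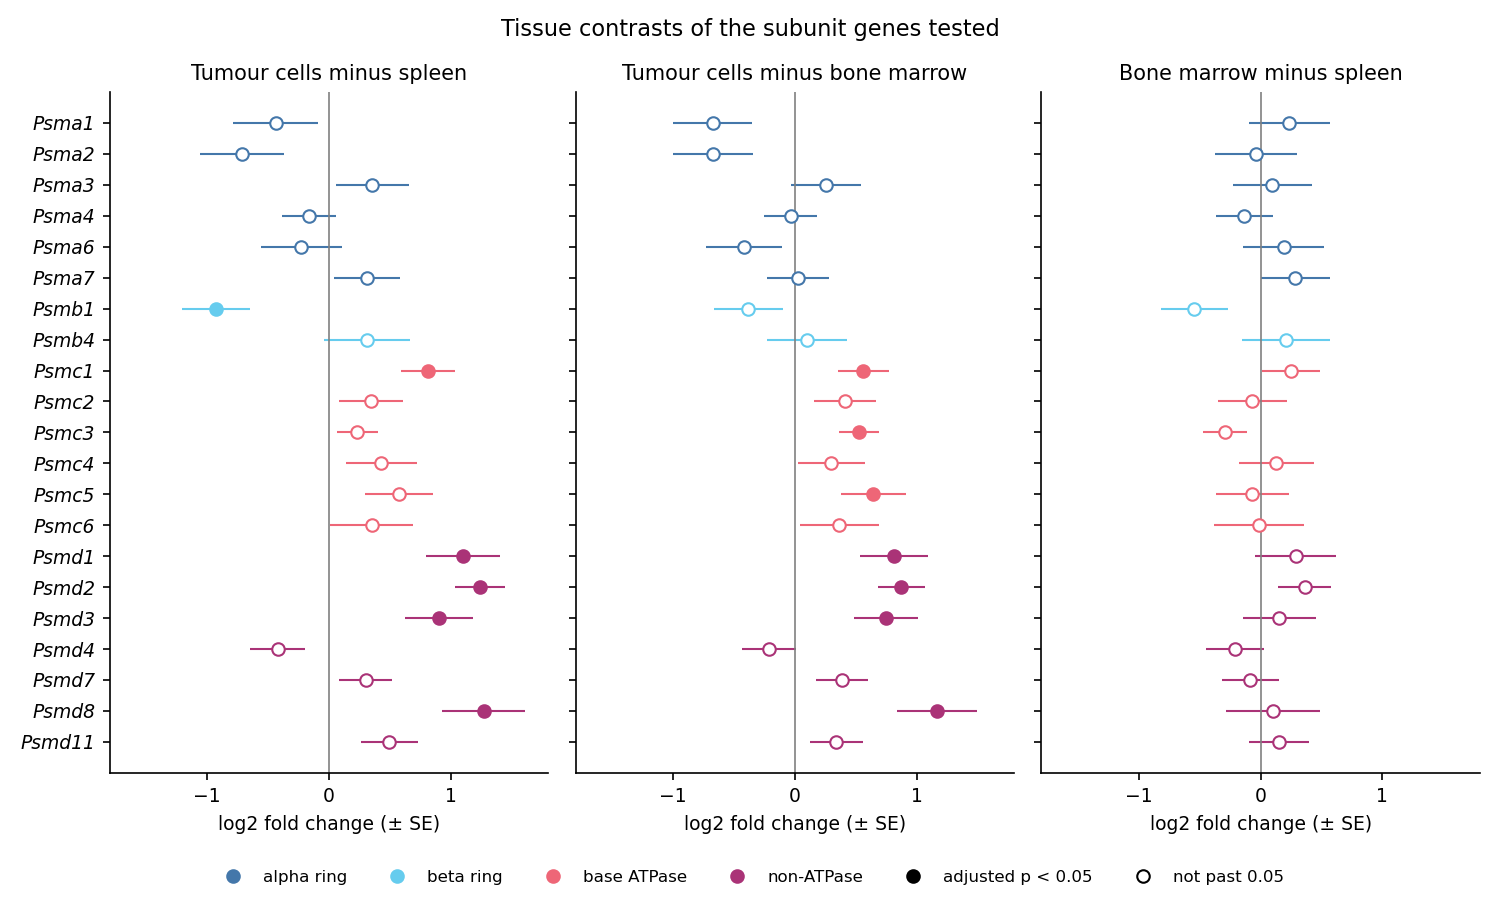
log2 fold changes (points) with their standard errors (bars) of the 21 tested subunit genes in 3 contrasts from edgeR's quasi-likelihood fit. Filled points have an adjusted p below 0.05. The filled points above 0 are ATPase and non-ATPase genes in both tumour contrasts, and the contrast of bone marrow minus spleen has none.

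Bone marrow was set against spleen in the same fit. The sample titles number the mice alike in both organs, so both may come from the same mice, while the count columns carry only a running number, and the fit treats the libraries as separate. None of the 21 tested subunit genes was called, where 38.4% of all genes tested were, 19.7% higher and 18.7% lower. By edgeR's test 0 of them had an unadjusted p below 0.05, DESeq2 called 0 with 1 at an unadjusted p below 0.05, and limma-voom called 0 with 0. Of all 5143 genes, DESeq2 called 2036 and limma-voom 2006. The median log2 fold change was 0.10 over the subunit genes, 0.14 over the core genes and 0.10 over the regulatory genes, against 0.02 over all genes tested. The most negative was Psmb1, at -0.54 ± 0.28, and the most positive Psmd2, at 0.36 ± 0.22. Without spleen library 8, 2090 of all 5459 genes were called, 973 higher and 1117 lower. Psmb1 was then called lower in bone marrow, at -0.75 ± 0.26 with an adjusted p of 0.0193 in edgeR's test. It was also called over coding genes without opposite-strand exons, at -0.75 ± 0.23 with an adjusted p of 0.00804, where 37.7% of those genes were called, 17.5% higher and 20.2% lower.

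Other genes of the pathway were read from a list of 35, of which 20 were tested. Against spleen, 12 of the 20 were called in tumour cells, 5 higher and 7 lower, where 68.1% of all genes tested were called, 33.4% higher and 34.7% lower. The immune subunits Psmb8 and Psmb9 both fell against spleen. Against bone marrow Psmb9 was not called, at -0.32 ± 0.36 with an adjusted p of 0.433 in edgeR's test. Psmb8 had 0, 3.55 and 22 CPM in tumour cells, 31.6, 39.4 and 72.2 CPM in bone marrow and 27.7, 63.8 and 88.7 CPM in spleen. The tumour libraries all lay below both organs, and Gm20496 lies on the opposite strand. Its log2 fold change was -3.43 ± 0.39 against spleen and -2.99 ± 0.40 against bone marrow. Uba6, a ubiquitin-activating enzyme, changed by -2.67 and -2.26. Psme1, a subunit of the interferon-inducible activator, changed by -1.36 and -0.89, and its exons share 14 bases with Emc9 on the opposite strand. Rad23b, a shuttle protein that carries ubiquitinated proteins to the proteasome, changed by 1.11 and 1.18.

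Against bone marrow, 8 of the 20 pathway genes were called, 3 higher and 5 lower, where 70.1% of all genes tested were, 34.2% higher and 35.9% lower. Nfe2l1 rose and Nfe2l2 fell. Nfe2l1 encodes the transcription factor that raises proteasome genes when proteasome activity is low. It was at 55.9, 74.6 and 150.1 CPM in tumour cells, 13.5, 19.3 and 37.8 CPM in bone marrow and 12.4, 32.1 and 72.4 CPM in spleen. All tumour libraries were above all bone marrow libraries, and the tumour and spleen ranges overlapped. Its log2 fold change was 1.67 ± 0.26 against bone marrow and 0.89 ± 0.25 against spleen. Bone marrow against spleen gave 6 calls among the 20, 3 higher and 3 lower, where 38.4% of all genes tested were called, 19.7% higher and 18.7% lower. Sem1, a small lid subunit, changed by 0.97, Nfe2l2, the related stress-response factor, by 0.82, and Usp14, a proteasome-bound deubiquitinase, by -0.51. Usp14 overlaps opposite-strand exons of Thoc1.

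The genotype comparison in CD45-negative tumour cells rests on the authors' deposited table, which does not state the direction of the subtraction, so signs are given as listed. The authors' deposited table holds 33 of the 36 subunit genes, without Psma8, Psmb11 and Psmd10. It calls 2 of them, where 0.644% of its 11340 genes are called, 0.317% negative and 0.326% positive, and this contrast chose both, so nothing is read from the share. In the authors' deposited table Psmb4 is at -1.56 and Psmd8 at -1.27 log2 units, each with an adjusted p of 0.017. The next by log2 fold change in the authors' deposited table is Psma6 at -1.20, and the next by adjusted p is Psma3 at 0.109, with a log2 fold change of -0.96. At the positive end the authors' deposited table lists Psmd3 at 0.21, Psmd7 at 0.16 and Psmd5 at 0.07. Psmd2, highest among the subunit genes in mean level, is at 0.02 there, in the authors' deposited table.

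By sign, 29 of the 33 subunit genes in the authors' deposited table are negative. Of the 31 other than Psmb4 and Psmd8, 27 are negative, with a median of -0.51 in the authors' deposited table. Among the 11340 genes in the authors' deposited table, a share of 58.5% is negative, with a median of -0.14. Coding genes without opposite-strand exons are 76.3% negative there, with a median of -0.36, and those with such exons are 50.1% negative (authors' deposited table). The 23 other subunit genes without opposite-strand exons are 20 of 23 negative, with a median of -0.51 in the authors' deposited table. The alpha genes are 7 of 7 negative with a median of -0.80, and the beta genes 7 of 7 with a median of -0.43, in the authors' deposited table. The ATPase genes are 6 of 6 negative with a median of -0.42, and the non-ATPase genes 9 of 13 with a median of -0.40, in the authors' deposited table. The 4 positive ones, all non-ATPase genes, are Psmd2, Psmd3, Psmd5 and Psmd7. Members share libraries and depth, so their signs are not independent of one another. Of the pathway list, the authors' deposited table has 30 genes, 22 of them negative with a median of -0.30, and 0 called. The immune subunit Psmb9 is positive in the authors' deposited table at 1.34 with an adjusted p of 0.0549, and Tap1 lies on its opposite strand.

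**Figure D4:**
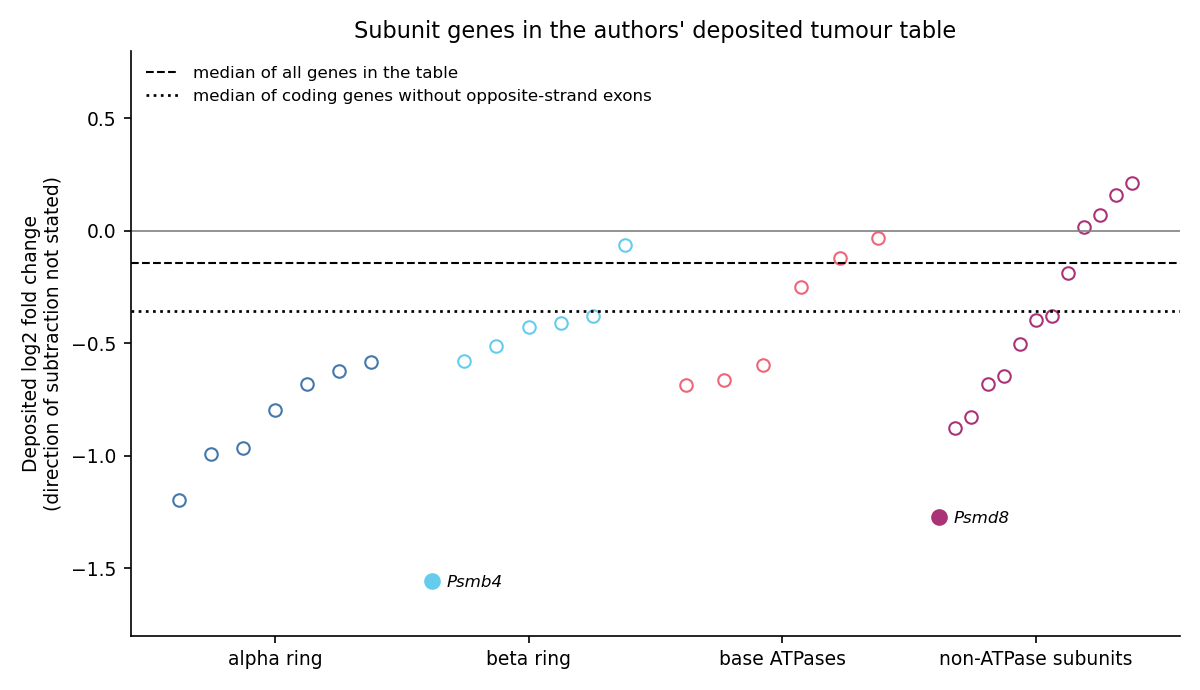
log2 fold changes of 33 subunit genes in the authors' deposited table of CD45-negative tumour cells, by the class assigned from the symbol, with the direction of subtraction not stated. Filled points are the 2 genes with an adjusted p below 0.05, the dashed line is the median of all 11340 genes (-0.14) and the dotted line that of coding genes without opposite-strand exons (-0.36).

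Across the 12 tumour libraries, Psmb4 and Psmd8 were among the subunit genes with the widest spread. Psmb4 was counted at 1, 6 and 27 reads and Psmd8 at 1, 16.5 and 38 reads (lowest, median and highest library). On the log2 CPM scale, the SD over libraries was 0.95 for Psmb4 and 1.07 for Psmd8. Over the 34 subunit genes other than Psma8 and Psmb11, the median SD of a single gene was 0.66. Ordered by SD among these 34, Psmd8 was number 2 and Psmb4 number 4 in tumour cells. In bone marrow they were number 15 and number 21, and in spleen number 22 and number 9. Both genes were chosen for a difference among the tumour samples, which itself widens their spread there. Nothing is therefore read from their ranks in tumour cells or from the contrast with the organs. Counting error alone would give an SD of about 0.52 for Psmb4 and 0.50 for Psmd8 at these read numbers. The same rough value was taken for each gene and tissue from the gene's own read numbers. In tumour cells 28 of the 34 genes had an SD above their own rough value, against 15 in bone marrow and 30 in spleen. The numbers above the true counting error may be larger.

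Over all 12 tumour libraries, Psmb4 did not follow the other genes closely. The difference between Psmb4 and the mean of the others ran from -1.78 to 2.07 log2 units, with an SD of 0.97, as large as that of Psmb4 itself. Library 4, with 5 Psmb4 reads among 51 subunit reads, gave the highest difference, and library 7, with 1 Psmb4 read among 349, the lowest. Without library 4 the SD of the difference was 0.83, below the 0.91 of Psmb4 itself in the same libraries. With library 4 kept and libraries 10 to 12 left out, the SD of the difference was again above that of Psmb4 itself. For Psmd8 the difference ran from -0.74 to 1.58 with an SD of 0.75, below the 1.07 of Psmd8 itself. Psmd8 and the other genes were both low in libraries 4, 10, 11 and 12, and in the last 3 the share of counts in coding genes without opposite-strand exons was lowest. Without those 3 libraries the SD of the Psmd8 difference was 0.49, where the rough value for counting error, which runs high, was 0.40. The part of the strand classes in this was not tested. Psmb4 and Psmd8 were chosen from a comparison of tumour samples, so these values are a description.

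**Figure D5:**
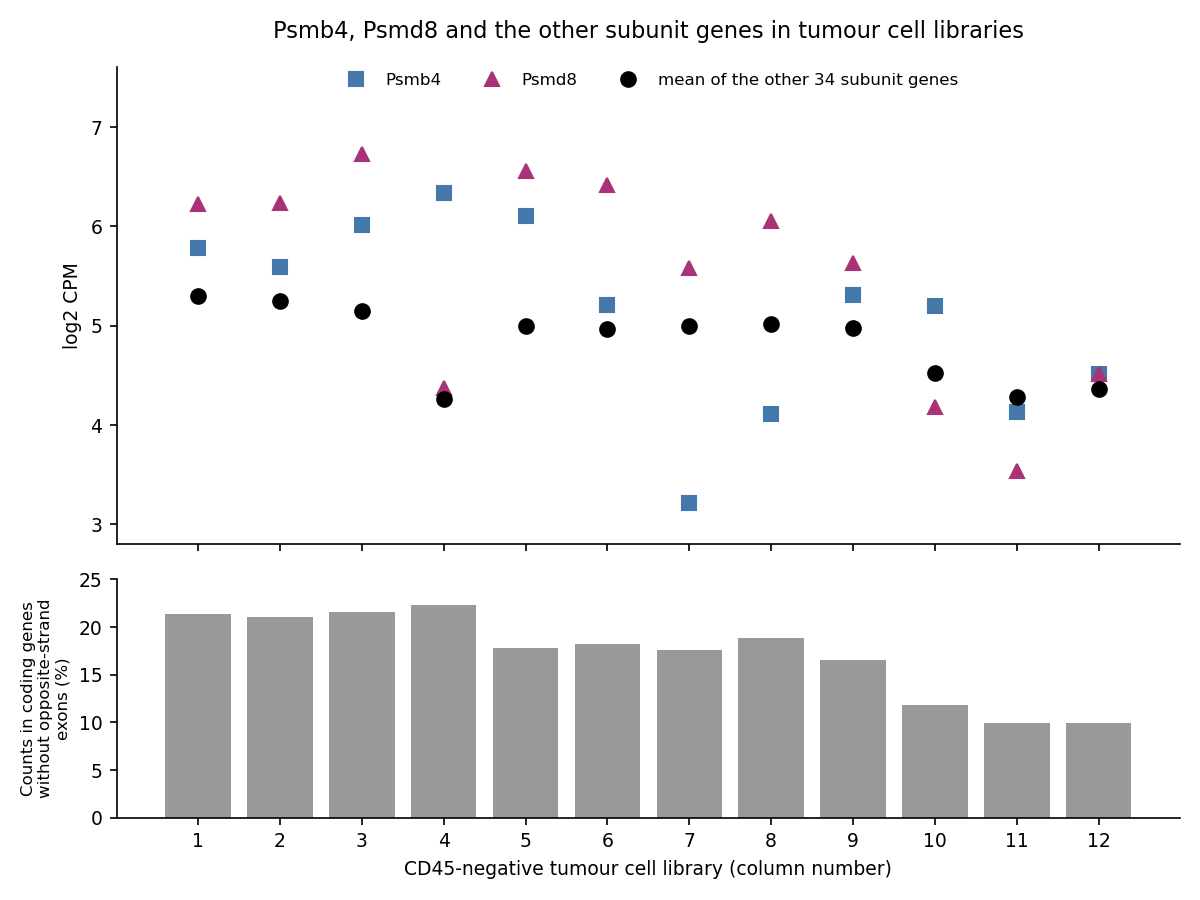
Upper panel, log2 CPM of Psmb4 (squares), Psmd8 (triangles) and the mean of the other 34 subunit genes (circles) in each CD45-negative tumour cell library. Lower panel, percentage of counts in coding genes without opposite-strand exons, which falls to between 9.93% and 11.8% in libraries 10 to 12, and Psmb4 departs most from the circles in libraries 4 and 7.

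Promoter sequences, from 250 bases before to 50 after the RefSeq start on GRCm38.p6, were available for 29 of the 36 genes. They are shown for Psmb4 and Psmd8, the genes called in the genotype comparison, and for Psmd2, which has the smallest p against spleen. Capitals mark CGGAAGT or its reverse complement ACTTCCG, a core that ETS-family transcription factors bind, chosen after these sequences were seen. The regions are chr3:94886909-94887208 on the minus strand for Psmb4, chr7:29180624-29180923 on the minus strand for Psmd8 and chr16:20651402-20651701 on the plus strand for Psmd2.
Psmb4: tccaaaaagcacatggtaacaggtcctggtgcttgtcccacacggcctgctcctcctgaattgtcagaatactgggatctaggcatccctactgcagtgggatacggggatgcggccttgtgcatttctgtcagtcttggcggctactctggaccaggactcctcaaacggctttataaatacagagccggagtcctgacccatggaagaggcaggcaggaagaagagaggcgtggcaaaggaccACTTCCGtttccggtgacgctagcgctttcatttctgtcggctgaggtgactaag
Psmd8: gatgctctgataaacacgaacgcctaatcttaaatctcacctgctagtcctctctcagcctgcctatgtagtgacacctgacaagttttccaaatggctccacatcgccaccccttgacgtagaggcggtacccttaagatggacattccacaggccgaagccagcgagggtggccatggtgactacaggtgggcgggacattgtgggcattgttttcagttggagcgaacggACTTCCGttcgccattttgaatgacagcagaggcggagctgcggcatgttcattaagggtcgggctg
Psmd2: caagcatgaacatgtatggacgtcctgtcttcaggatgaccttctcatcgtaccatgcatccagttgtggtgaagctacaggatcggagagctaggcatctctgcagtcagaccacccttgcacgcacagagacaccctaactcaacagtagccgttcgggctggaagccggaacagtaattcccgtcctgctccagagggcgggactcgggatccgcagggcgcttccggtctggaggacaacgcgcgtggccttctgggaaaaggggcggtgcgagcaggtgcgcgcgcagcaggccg

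The motif stood once in the Psmb4 promoter, with its first base 5 bases before the start, and once in that of Psmd8, 17 bases before the start. That of Psmd2 had no match to these exact letters, but holds GCTTCCG, which differs from ACTTCCG only in its first letter. Searched on both strands, CGGAAGT occurred in 10 of the 29 subunit promoters, 2 of 12 core and 8 of 17 regulatory ones, and in 6.59% of all 27025 promoters of the same length. The 10 include Psmb4 and Psmd8, whose sequences were seen before the motif was chosen, so nothing is read from this share. TGACNNNGC, the core of the antioxidant response element through which NFE2L1 and NFE2L2 act, occurred in 5 of 29 subunit promoters (17.2%) and in 12.5% of all promoters. The 5 were those of Psmb5, Psmb6, Psmc6, Psmd9 and Psmd12. A match describes the letters only.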

How the data were processed

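Per the labels' protocols, polyA RNA was prepared with a TruSeq Stranded mRNA kit, and read pairs of 50 bp were sequenced. The submitters' processing notes name HISAT2, edgeR, GRCm38 and mm10, without roles. The authors' deposited count table holds raw whole-number counts per gene. Of its 48 per-sample columns, 28 were matched to a tissue by name, and the other 20, all lymph node, were not used in any step. For the genotype comparison in tumour cells the authors deposited edgeR-style columns: log2 fold change, mean log2 CPM, the F value (a score), p-value and adjusted p-value.

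Counts were fitted with edgeR 4.0.16 (quasi-likelihood test, TMM scaling, filterByExpr, all 3 tissues in one fit, Benjamini-Hochberg over all genes tested) in R 4.3.3. Log2 CPM used a prior count of 2. DESeq2 1.42.0 and limma 3.58.1 (voom) were alternatives. The fits were tested on simulated data. Only 1 of 4 planned contrasts could be run, and the 2 contrasts with tumour cells were added after the column names were seen, in place of lymph node contrasts. Strand, exons and overlaps came from GENCODE release M21 on GRCm38, where all 36 genes had the same start and end as in the count table. Depth was 54117 to 637985 reads per library, so counting error is large for single genes.

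The members, the pathway and marker lists and the settings were chosen with earlier results of these data known. Named were Psmb4, Psmd8, the catalytic and tissue-restricted subunits, the 3 called members with the largest change in each direction per contrast, the 3 largest in each direction in the deposited table, the highest and lowest per length, members with opposite-strand overlap and up to 4 called pathway genes per contrast by smallest p. A pathway gene that this rule names is not reported here. Psma1, Psma2, Psma3, Psmc5, Psmd4, Psmd11, Psmd2 in the deposited table, Psmb9 and the values of a pathway gene outside its own contrast were named outside this rule, after their values were seen. Python 3.11.15 with numpy 2.4.6, pandas 2.3.3, scipy 1.17.1 and matplotlib 3.10.9 was used for the rest.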

Additional observations from a re-analysis of the deposited data

Results flagged for a closer look

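Spleen library 8 stood apart from the other 7 spleen libraries in the share of counts in coding genes without opposite-strand exons, at 9.58% where the nearest library had 17.6%. The same library had the lowest Psmb1 level, 3.50 log2 CPM from 1 read, where the nearest spleen library had 4.94. For both, the gap to the nearest library was over the 95% critical share of the range for 8 libraries (0.565 and 0.537 of the range). Chance gives such a gap in about 1 in 20 groups. The tumour libraries, with 12 in the group, were not examined in this way.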

How the results depend on the processing

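The count of subunit genes called against spleen was 6 and stayed within 1.5 times of that except as follows. At a fold of at least 2 it was 3, where 2405 of all 5143 genes were called. With at least 10 reads in every library of a compared group, 1 gene was left to test and 0 were called. There 1349 of all 1733 genes were called. Against bone marrow the count was 7. It was 3 at an adjusted p below 0.01, where 3158 of all 5143 genes were called. At a fold of at least 2 it was 1, where 2488 of all genes were called. With at least 10 reads in every library it was 3 of 4 tested, where 2073 of all 2821 genes were called. Psmd3 and Psmb1 were not among the calls against spleen with only the compared groups fitted. There 4 subunit genes rose and 1 fell, Psmd4 at -0.70, where 1204 of all 3879 genes rose and 1286 fell. Bone marrow minus spleen gave 1 call, Psmb1, without spleen library 8 and over coding genes without opposite-strand exons. Without a call, Psmb4 in tumour cells minus bone marrow changed sign to -0.049 (DESeq2's size factors), -0.029 (DESeq2), -0.098 (limma-voom), -0.028 (no filter), -0.021 (only the compared groups) and -0.048 (without tumour library 4). Psmd8 in bone marrow minus spleen changed to -0.095 over coding genes without opposite-strand exons and -0.091 without spleen library 8. The core minus regulatory difference was -0.22 in bone marrow and -0.28 in spleen with the median over genes. The SD of the Psmd8 difference was 0.49 without tumour libraries 10 to 12. At an adjusted p below 0.01 the authors' deposited table calls 0 subunit genes, where Psmb4 and Psmd8 are both at 0.017. The share of all its 11340 genes called at 0.01 is not given here (0.644% at 0.05), so nothing is read from this count. The causes were not tested. The settings that leave out libraries were chosen after seeing the data. The columns of bone marrow and spleen both run from 1 to 8, which does not state shared mice. Same-numbered libraries correlated at -0.028 to 0.48 in their deviations from the group means, above 0.1 in 5 of 8 pairs. Their median was 0.18, against -0.02 for libraries of unlike number, and 5 bone marrow and 4 spleen libraries correlated best with their own number. Shared mice are thus possible but not stated, and the main fit does not pair the libraries. With the running number as a replicate block and only both organs in the fit, 0 of 16 tested subunit genes and 1748 of all genes were called, against 0 and 1598 in that fit without the block. For the tumour contrasts no paired analysis was possible because the tumour cells came from other mice. The planned contrasts with lymph nodes were not run. At a median of 7 to 11 reads per gene and library, small differences were not detectable.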
